A study of Mus musculus with 8 samples.

Results

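The C/EBP family comprised 6 genes here, Cebpa, Cebpb, Cebpd, Cebpe, Cebpg and Cebpz, chosen by name among the 34199 genes of the count table. Their mRNA was measured by RNA-seq in iGMPs, mouse C57Bl/6 granulocyte-macrophage progenitors that carry a Lys-GFP reporter and are held in self-renewal by HOXA9 fused to an estradiol-responsive estrogen receptor domain. Uninduced iGMPs (0 h) grew with 150 ng/ml estradiol and stem cell factor. In CAF-1 OFF, 500 µM IPTG induced an shRNA against Chaf1b, a subunit of the histone chaperone CAF-1, for 48 h with estradiol kept. In HOXA9 OFF, estradiol was washed out for 48 h. The IPTG-treated control received IPTG for 48 h, and per the study the inducible control vector carries a spacer sequence. Each of these 4 groups had 2 libraries. The lines are clonal. The supplement of the study speaks of RNA-seq from independent sub-clones, but the labels do not tie a library to a sub-clone or say what replicate numbers share. The p-values below therefore measure only the spread between these samples, which may be that between sub-clones of a line or technical.

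C/EBP proteins are transcription factors that bind DNA as dimers through a basic region followed by a leucine zipper (bZIP). In the myeloid lineage C/EBPα drives the step to granulocyte-macrophage progenitors and restrains proliferation, C/EBPε is required for the secondary granules of neutrophils, and C/EBPβ and C/EBPδ act in emergency granulopoiesis, macrophages and inflammation. C/EBPγ lacks a strong activation domain and acts mainly as a dimerization partner. Cebpz shares the family name but encodes a CCAAT-binding protein of the CBF/NOC type linked to ribosome biogenesis, and the bZIP protein sometimes called C/EBPζ is CHOP, encoded by Ddit3.

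The coding sequence of the DNA-contacting basic region is shown for 4 of the bZIP members, Cebpa, Cebpb, Cebpe and Cebpg, since it shows what makes these genes a family. Each line gives 75 bases, 25 codons, 5′ to 3′ on the coding strand, located by the invariant asparagine and arginine of the basic region and the leucines that follow. Capitals mark the 37 bases (49.3%) that are identical in these 4, and the sequences come from the mm9 genome with GENCODE vM1 gene models.
Cebpa: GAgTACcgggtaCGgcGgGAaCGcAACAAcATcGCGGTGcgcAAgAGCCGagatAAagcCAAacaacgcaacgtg
Cebpb: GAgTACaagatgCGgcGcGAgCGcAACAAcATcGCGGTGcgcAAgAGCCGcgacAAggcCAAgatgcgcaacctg
Cebpe: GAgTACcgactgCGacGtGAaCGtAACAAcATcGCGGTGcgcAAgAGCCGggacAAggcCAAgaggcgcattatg
Cebpg: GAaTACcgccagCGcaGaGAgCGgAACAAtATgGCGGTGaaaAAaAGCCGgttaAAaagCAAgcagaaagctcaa
The stretches lie at chr7:35905290-35905364 (Cebpa, plus strand), chr2:167515191-167515265 (Cebpb, plus), chr14:55329532-55329606 (Cebpe, minus) and chr7:35835592-35835666 (Cebpg, minus), each within a single exon. Of these 4, Cebpb and Cebpe matched at 82.7% of the bases, Cebpa and Cebpb at 81.3% and Cebpa and Cebpe at 78.7%. By encoded residues the order differed, with 20 of 25 identical between Cebpb and Cebpe and 21 in either pair with Cebpa. Cebpg stood furthest away by both measures, with at most 60.0% of bases and 17 residues shared with another of the 4. No stretch of this kind was found among the 1052 codons of Cebpz. Every 50-base window of the transcripts of these 4 genes and of Cebpz was absent, in the sense direction, from the protein-coding transcripts of all other genes. Reverse complements were not searched, so opposite-strand exons that overlap Cebpb and Cebpz were not covered.

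In mm9, Cebpa (chr7:35904312-35906945, plus strand) and Cebpg (chr7:35831441-35841522, minus strand) lie 62.8 kb apart. Cebpb is a gene without introns at chr2:167514415-167515918 on the plus strand. The annotation places 312 of its exonic bases (20.7%) under exons of Tmem189 on the opposite strand. Cebpd, on chromosome 16, is listed as a pseudogene in this annotation. Cebpe (chr14:55329200-55331011, minus strand) has 2 exon blocks. Cebpz (chr17:79318346-79336410, minus strand) shares 312 exonic bases (7.7%) with 1110001A16Rik on the opposite strand. The sources used here do not state the strand setting of the counting, so reads of Cebpb and Tmem189, or of Cebpz and 1110001A16Rik, may not be separated in those bases.

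RefSeq promoter sequences were at hand for 3 members and are shown for all 3, the neighbours Cebpa and Cebpg, of which Cebpg was called lower after HOXA9 loss, and Cebpb, which was called higher. Each line holds the 250 bases before the annotated start, 5′ to 3′ in the gene's orientation, in GRCm38.p6. Capitals mark matches on either strand to TTGCG (the core of a C/EBP site), TGACG (the core of a cyclic AMP response element) or CCAAT, which do not overlap each other in these windows.
Cebpa: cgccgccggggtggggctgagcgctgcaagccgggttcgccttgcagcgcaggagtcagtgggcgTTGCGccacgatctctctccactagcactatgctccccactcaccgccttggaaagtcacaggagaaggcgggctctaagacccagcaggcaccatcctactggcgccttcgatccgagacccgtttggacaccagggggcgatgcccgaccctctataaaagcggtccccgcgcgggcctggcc
Cebpg: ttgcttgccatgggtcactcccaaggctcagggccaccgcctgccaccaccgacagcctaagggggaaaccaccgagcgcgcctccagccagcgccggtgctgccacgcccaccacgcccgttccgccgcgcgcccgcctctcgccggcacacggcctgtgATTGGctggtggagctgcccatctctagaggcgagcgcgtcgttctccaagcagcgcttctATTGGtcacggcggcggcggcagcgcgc
Cebpb: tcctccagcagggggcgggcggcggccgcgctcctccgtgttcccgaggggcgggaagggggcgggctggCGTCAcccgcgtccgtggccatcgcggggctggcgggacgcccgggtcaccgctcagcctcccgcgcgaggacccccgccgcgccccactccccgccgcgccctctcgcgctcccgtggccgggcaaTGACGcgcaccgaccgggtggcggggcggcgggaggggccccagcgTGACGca
These windows are chr7:35119043-35119292 (Cebpa, plus strand), chr7:35056567-35056816 (Cebpg, minus) and chr2:167688665-167688914 (Cebpb, plus). Cebpa held 1 match to TTGCG, which occurs in 14.5% of the 32851 promoters of this length. Cebpb held 3 matches to TGACG, found in 17.8% of promoters, and Cebpg 2 matches to CCAAT, found in 33.8%. GC content was 66.4% for Cebpa, 70.8% for Cebpg and 81.6% for Cebpb, against a median of 52.4% over all promoters. A match describes letters only and is not evidence of binding.

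Library totals over genes ran from 14044284 to 22423837 counts. The first IPTG-treated control stood apart, with 14.64% of its reads falling in no gene, among those assigned to a gene, to none or to several, against 5.301% to 7.790% in the others, and comparisons of C/EBP genes with this group are also given without it. The 2 HOXA9 OFF libraries differed from each other more than those of any other group (chi-square per degree of freedom 79.72, against 17.24 to 24.11). Among the 6 macrophage markers C1qb was at 0.4341 CPM in the first and 120.8 in the second, Cd68 at 47.26 and 234.3, Csf1r at 465.3 and 853.3, Mrc1 at 1.791 and 3.174 and C1qa at 0 and 4.414, while Emr1 was lower in the second (493.6 and 436.5). Of the 5 megakaryocyte markers, Vwf (0.6512 and 53.61) and Pf4 (1.248 and 20.83) were higher in the second library, Itga2b (114.2 and 93.29) and Gp9 (11.56 and 9.076) were lower, and Gp1bb was at 0 in both. The markers of a cell type thus did not all differ in the same direction between these libraries. Chaf1b was at 96.80 and 100.3 CPM (read counts relative to the TMM-scaled library total) in the uninduced libraries, at 18.69 and 9.724 in CAF-1 OFF, and at 48.29 and 41.01 in HOXA9 OFF. Hoxa9 transcript was not lost in HOXA9 OFF (481.2 and 449.7 CPM against 234.4 and 234.8), and it does not check a fusion that is switched off through its ligand. The 7 progenitor markers summed to 10590 to 14380 CPM in the uninduced libraries, 14930 to 15440 in CAF-1 OFF and 5547 to 7509 in HOXA9 OFF. The 8 mature neutrophil markers summed to 37.74 to 51.51, 190.1 to 282.9 and 5801 to 8517 CPM in the same groups, and the 6 macrophage markers to 27.72 to 53.81, 50.48 to 79.36 and 1008 to 1653 CPM. Mast cell and basophil markers summed to 658.6 to 1052 CPM in CAF-1 OFF, against 149.3 to 201.7 before induction and 164.3 to 222.4 CPM in HOXA9 OFF. The 5 megakaryocyte markers summed to 23.54 to 25.45 CPM in the uninduced libraries, 188.6 to 215.0 in CAF-1 OFF and 127.7 to 176.8 in HOXA9 OFF. Lymphoid markers went from 9.112 to 15.53 CPM up to 47.31 to 52.27 in CAF-1 OFF, with 12.26 to 13.19 in HOXA9 OFF, and erythroid markers from 4.834 to 7.611 CPM up to 14.74 to 15.27 and 12.75 to 22.84. In CAF-1 OFF the lymphoid sum was mostly Nkg7 (35.06 and 30.69 CPM) and Cd79a (15.48 and 15.32), with Cd3e at 0. That of mast cells and basophils was mostly Cpa3 (764.5 and 423.1 CPM) and Mcpt8 (267.1 and 227.8), the erythroid one Gata1 and Epor. Of the 7 progenitor markers 0 were called in CAF-1 OFF, beside 10.5% of all genes higher and 3.50% lower. In HOXA9 OFF 1 was called higher and 4 lower, beside 25.2% and 22.1%. In bulk RNA, fewer cells of a type and less RNA per cell cannot be told apart, and how far these marker shifts account for the changes below was not tested.

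Cebpe was the member called in both CAF-1 OFF and HOXA9 OFF, 3.56-fold and 3.62-fold higher, the former call being lost when any 1 of 3 libraries was left out. HOXA9 OFF cells in addition raised Cebpb and Cebpd and lowered Cebpg and Cebpz, whereas none of those 4 passed the test in CAF-1 OFF. Cebpa, the factor of the progenitor stage, did not pass the test in CAF-1 OFF and in HOXA9 OFF was lower by just under 1.5-fold. A gene was called when edgeR's quasi-likelihood test gave a false discovery rate (FDR, adjusted over all 13080 genes tested) under 0.05 and the change was at least 1.5-fold, the thresholds of the study. All 6 members passed the filter on low counts. In CAF-1 OFF 10.5% of all tested genes passed as higher and 3.50% as lower, and in HOXA9 OFF 25.2% and 22.1%, so 1 of 6 members called in CAF-1 OFF is near the background. Every comparison with uninduced cells shares the same 2 uninduced libraries.

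**Figure D1:**
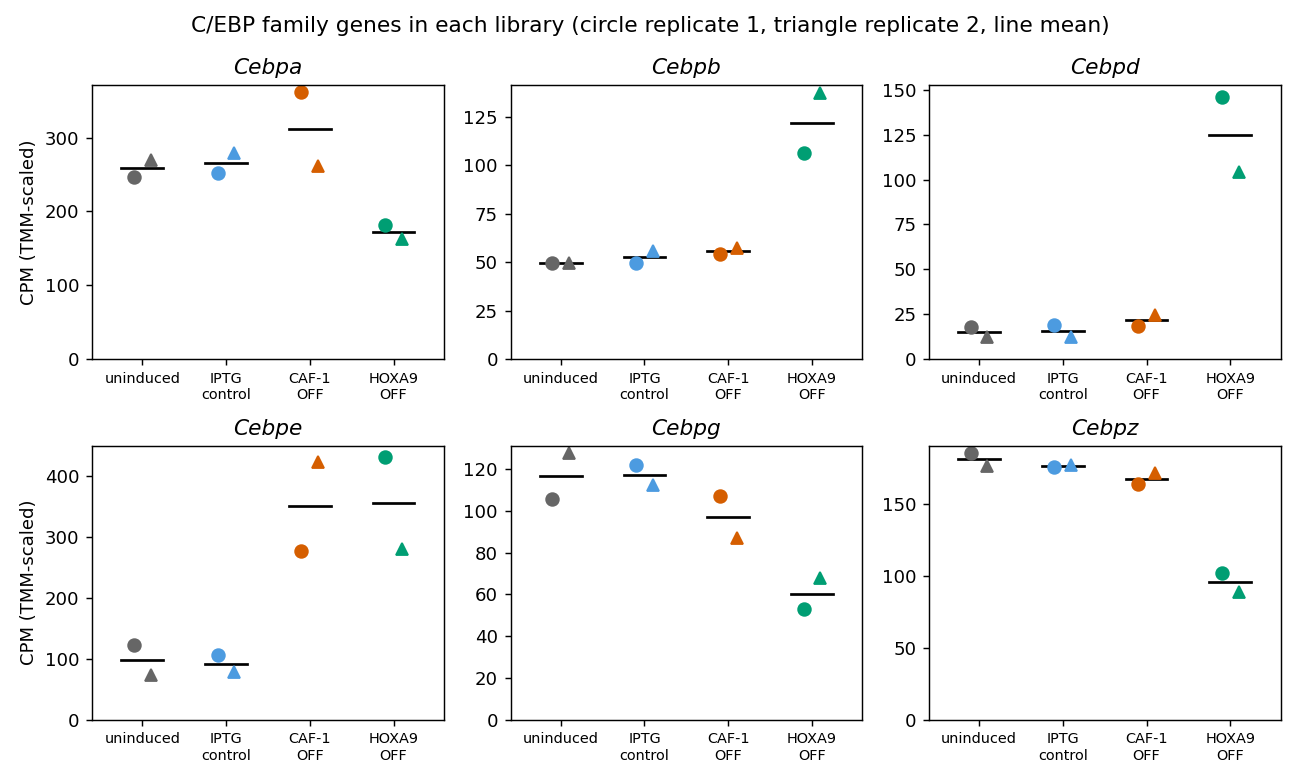
TMM-scaled CPM (y axis, from 0) of each C/EBP family gene in the 4 groups (x axis), with a circle for replicate 1, a triangle for replicate 2 and a line at the mean of the 2 libraries. Cebpe is high in CAF-1 OFF and HOXA9 OFF, Cebpb and Cebpd are high in HOXA9 OFF, and Cebpa, Cebpg and Cebpz are lowest in HOXA9 OFF.

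Cebpe, which encodes the factor of the promyelocyte to neutrophil transition, was at 123.3 and 73.24 CPM in the uninduced libraries, 105.8 and 77.59 in the IPTG-treated control, 277.1 and 423.2 in CAF-1 OFF and 431.6 and 280.5 in HOXA9 OFF. Both treated groups lay above all 4 control libraries, and they overlapped each other. Cebpe rose 3.56-fold in CAF-1 OFF (log2 fold change 1.83 ± 0.33 SE, edgeR FDR = 0.01259) and 3.62-fold in HOXA9 OFF (1.86 ± 0.34, edgeR FDR = 0.002151). The direct comparison of the treated groups gave a log2 difference of −0.02 with a 95% interval from −0.78 to 0.73, an interval that still spans more than 1.5-fold in either direction. Its standard errors were the largest of the family in every comparison. Replicate 1 was higher than replicate 2 in the uninduced, IPTG-treated control and HOXA9 OFF groups and lower in CAF-1 OFF. The CAF-1 OFF library with the lower Chaf1b level (9.724 CPM) had the higher Cebpe level (423.2 CPM). Cebpa had the reverse order there (361.3 and 261.9 CPM in replicates 1 and 2), and with 2 libraries a link to Chaf1b was not tested. The call in CAF-1 OFF was lost without uninduced replicate 1 (log2 fold change 2.25, edgeR FDR = 0.05272), without uninduced replicate 2 (FDR = 0.06339) and without CAF-1 OFF replicate 2 (FDR = 0.09677), while the direction held in each.

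Cebpd was the member with the largest change, and only in HOXA9 OFF. This acute-phase factor was at 17.67 and 12.28 CPM in the uninduced libraries, 18.86 and 12.45 in the IPTG-treated control, 18.58 and 24.57 in CAF-1 OFF and 146.1 and 104.1 in HOXA9 OFF. The HOXA9 OFF libraries lay far above the other 6. The rise in HOXA9 OFF was 8.36-fold (log2 fold change 3.06 ± 0.29 SE, edgeR FDR = 9.24e-05), at percentile 94.61 of the signed changes of all tested genes. In CAF-1 OFF the fitted change was 0.53 ± 0.28 with a 95% interval from −0.12 to 1.18 (edgeR FDR = 0.2122). The direct test put CAF-1 OFF 5.80-fold below HOXA9 OFF (log2 difference −2.54, 95% interval −3.20 to −1.87, edgeR FDR = 2.80e-04).

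Cebpb, the partner of Cebpd in inflammatory transcription, stayed between 49.46 and 57.40 CPM in every library but those of HOXA9 OFF. It was at 49.58 and 49.71 CPM in the uninduced libraries, 49.46 and 55.76 in the IPTG-treated control, 53.96 and 57.40 in CAF-1 OFF and 106.2 and 137.1 in HOXA9 OFF. Cebpb rose 2.45-fold in HOXA9 OFF (log2 fold change 1.29 ± 0.14 SE, edgeR FDR = 1.73e-04). The change in CAF-1 OFF was 0.17, with a 95% interval from −0.16 to 0.49, and the difference between the treated groups was called (−1.13, edgeR FDR = 4.53e-04). Tmem189, the gene on the opposite strand, was also higher in HOXA9 OFF, at 45.96 and 82.57 CPM against 29.42 and 32.64 in uninduced cells. Its part in the Cebpb counts was not tested.

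Cebpa was at 246.5 and 270.2 CPM in the uninduced libraries, 251.6 and 278.8 in the IPTG-treated control, 361.3 and 261.9 in CAF-1 OFF and 181.7 and 163.2 in HOXA9 OFF. The HOXA9 OFF libraries lay below all others, while CAF-1 OFF overlapped the controls. The decrease in HOXA9 OFF had an edgeR FDR of 0.01502 (log2 fold change −0.58 ± 0.16 SE, 95% interval −0.95 to −0.21) but amounted to 1.498-fold, just short of the 1.5-fold threshold. It was called against the IPTG-treated control (1.54-fold lower, edgeR FDR = 0.01171). In CAF-1 OFF the fitted change was 0.27, with a 95% interval from −0.10 to 0.64. Cebpa was 1.81-fold higher in CAF-1 OFF than in HOXA9 OFF (log2 difference 0.85, edgeR FDR = 0.003079).

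Cebpg, the neighbour of Cebpa, fell in HOXA9 OFF as well. It was at 105.7 and 127.4 CPM in the uninduced libraries, 121.9 and 112.4 in the IPTG-treated control, 106.9 and 86.73 in CAF-1 OFF and 52.96 and 67.75 in HOXA9 OFF. Only the HOXA9 OFF libraries lay clear of the uninduced ones. The decrease was 1.93-fold (log2 fold change −0.95 ± 0.16 SE, edgeR FDR = 0.001761). In CAF-1 OFF the change was −0.27, with a 95% interval from −0.65 to 0.11. The difference of 0.68 between the treated groups was called (edgeR FDR = 0.009584), but not without CAF-1 OFF replicate 1 (0.52, FDR = 0.06802) or without HOXA9 OFF replicate 1 (0.51, FDR = 0.04300, under 1.5-fold). Nearby on chromosome 7, Pepd changed by 0.08 and Gpatch1 by −0.41 on the log2 scale in HOXA9 OFF, values looked up after those of Cebpa and Cebpg were seen.

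Cebpz had the smallest standard errors of the family. It was at 186.0 and 176.8 CPM in the uninduced libraries, 176.3 and 177.5 in the IPTG-treated control, 164.4 and 171.5 in CAF-1 OFF and 102.5 and 89.27 in HOXA9 OFF. Cebpz fell by 0.92 on the log2 scale in HOXA9 OFF (SE 0.10, edgeR FDR = 1.64e-04). In CAF-1 OFF both libraries were below the uninduced ones, yet the change of −0.11 had a 95% interval from −0.34 to 0.12. Its antisense neighbour 1110001A16Rik stayed below 10 CPM in every library, ranging from 3.607 to 9.125 CPM. The other CBF/NOC proteins and the NF-Y subunits were followed beside Cebpz as a list of 6 genes, of which 5 were analysed here. In HOXA9 OFF, Noc4l (−1.69, edgeR FDR = 1.55e-05) and Noc3l (−1.62, edgeR FDR = 2.95e-05), both nucleolar partners in ribosome assembly, fell, and the 3 NF-Y subunits Nfya, Nfyb and Nfyc were not called. Thus 2 of the 5 were called lower and 0 higher, beside 22.1% and 25.2% of all genes. In CAF-1 OFF 0 of the 5 were called by edgeR or by DESeq2, beside 10.5% of all genes called higher and 3.50% lower by edgeR. The 2 with an unadjusted p under 0.05 in edgeR, Noc3l (−0.48, edgeR FDR = 0.02359) and Nfya (−0.50, edgeR FDR = 0.04460), passed the FDR but not 1.5-fold.

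**Figure D2:**
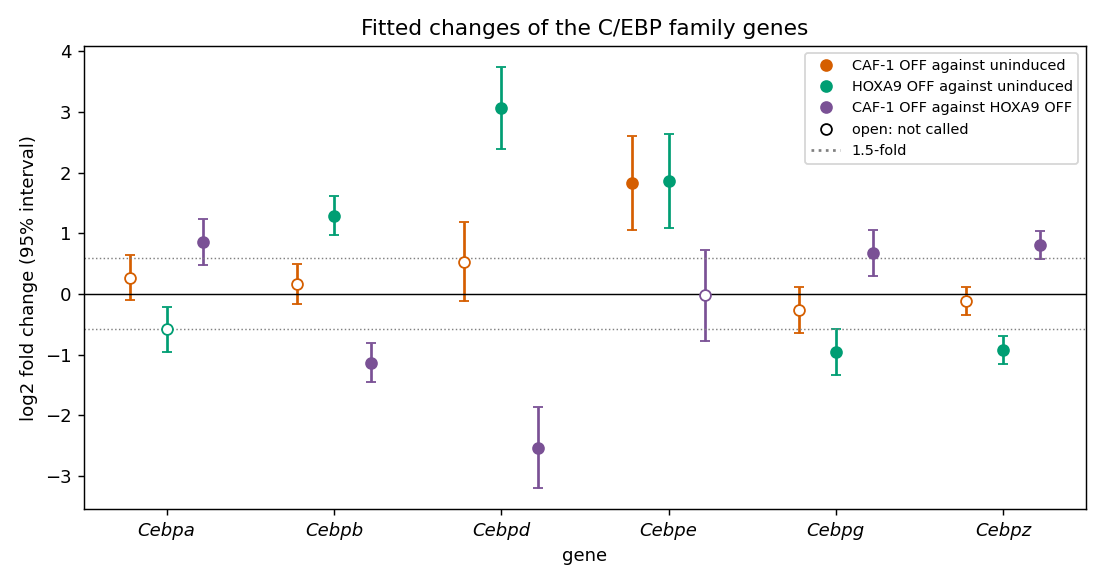
Fitted log2 fold change (y axis) of each C/EBP family gene (x axis) in 3 comparisons, with 95% intervals as bars, filled points for calls and open points for values not called, and dotted lines at 1.5-fold. Cebpe is the only member called in CAF-1 OFF against uninduced, and it is also the only one not called between CAF-1 OFF and HOXA9 OFF.

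Counted together, CAF-1 OFF had 1 of 6 members called higher and 0 lower, where 10.5% of all tested genes were called higher and 3.50% lower. In HOXA9 OFF 3 were called higher and 2 lower, beside 25.2% and 22.1% of all genes, so that calls in either direction were frequent throughout that transcriptome. The 5 members called there were also called without either HOXA9 OFF library. Between CAF-1 OFF and HOXA9 OFF 3 members were higher in CAF-1 OFF and 2 lower, beside 22.2% and 21.4%. The median log2 change of the members was 0.22 in CAF-1 OFF and 0.36 in HOXA9 OFF, against 0.01 over all tested genes in both.

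The IPTG-treated control was compared with uninduced cells next. It differed from them in IPTG and in 48 h of culture and possibly in clone and vector, which cannot be told apart. The 6 fitted changes ran from −0.10 to 0.08, and without the first IPTG-treated control library from −0.34 to 0.16, with 0 called by edgeR in either fit. The widest 95% interval with all libraries, that of Cebpe, reached from −0.86 to 0.66. None of the 6 was called by edgeR or DESeq2 and none had an unadjusted p under 0.05. Over all genes edgeR called 0 (0%), with 100 at an unadjusted p under 0.05, and DESeq2 called 5. Against this control, Cebpe was again the only member called in CAF-1 OFF (log2 fold change 1.93, edgeR FDR = 0.01260), beside 9.56% of all genes called higher and 3.20% lower. Without the first IPTG-treated control library the value was 2.15 with an FDR of 0.06224, and the other 5 members, from −0.24 to 0.77, were not called either. Without the second it was 1.72 (FDR = 0.09096), and without CAF-1 OFF replicate 2 it was 1.60 (FDR = 0.09241). In HOXA9 OFF all 6 members were called against this control, 3 higher and 3 lower, beside 24.6% and 21.8% of all genes, and all 6 were also called without the first IPTG-treated control library. The Cebpa call there was lost without the second IPTG-treated control library (−0.55, FDR = 0.06936) and without HOXA9 OFF replicate 2 (−0.54, under 1.5-fold).

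To compare members with each other, counts were divided by the length of each gene's exons and expressed as CPM per kilobase. In uninduced cells Cebpa averaged 98.1 ± 6.38 CPM per kilobase (SD, n = 2) and Cebpe 79.4 ± 28.6, and their order differed between the 2 libraries. Cebpz (44.5 ± 1.61), Cebpb (33.0 ± 0.0609), Cebpg (23.6 ± 3.11) and Cebpd (12.7 ± 3.23) followed, each pair of neighbours in this lower part being separated by more than their SDs. In CAF-1 OFF Cebpe led at 283 ± 83.4, ahead of Cebpa at 118 ± 26.7, and the order of Cebpz (41.2 ± 1.23) and Cebpb (37.0 ± 1.62) held. Cebpg (19.6 ± 2.88) and Cebpd (18.3 ± 3.59) could not be ordered there. In HOXA9 OFF Cebpe was at 288 ± 86.3. Cebpd at 106 ± 25.2 and Cebpb at 80.9 ± 14.5 overlapped each other, and both libraries of each stood above those of Cebpa at 65.5 ± 4.97. Cebpz (23.5 ± 2.30) and Cebpg (12.2 ± 2.12) came last.

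As a share of the summed per-length level of the 5 bZIP members, Cebpa made up 40.0 ± 6.20% in uninduced cells, 40.9 ± 4.80% in the IPTG-treated control, 25.4 ± 8.75% in CAF-1 OFF and 12.0 ± 1.26% in HOXA9 OFF. Cebpe made up 31.8 ± 8.72%, 29.9 ± 5.20%, 58.8 ± 10.2% and 51.5 ± 6.31% in the same order, and was the leading member in all 4 treated libraries but only in 1 of the 4 control libraries. The CAF-1 OFF and HOXA9 OFF cells differed in what stood beside Cebpe. Cebpd made up 3.63% and 4.02% of the sum in the CAF-1 OFF libraries and 19.9% and 18.3% in the HOXA9 OFF libraries. Cebpg went from 9.67 ± 2.13% in uninduced cells to 4.19 ± 1.13% and 2.29 ± 0.797%. The summed level itself was 262.5 and 231 CPM per kilobase in uninduced cells, 254.6 and 238.9 in the IPTG-treated control, 434.3 and 517.8 in CAF-1 OFF and 622.8 and 481.6 in HOXA9 OFF, with no overlap between treated and control libraries. The second IPTG-treated control library on its own had 44.3% Cebpa and 26.2% Cebpe. Shares are descriptions without a test, since they must add up and are tied to each other.

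**Figure D3:**
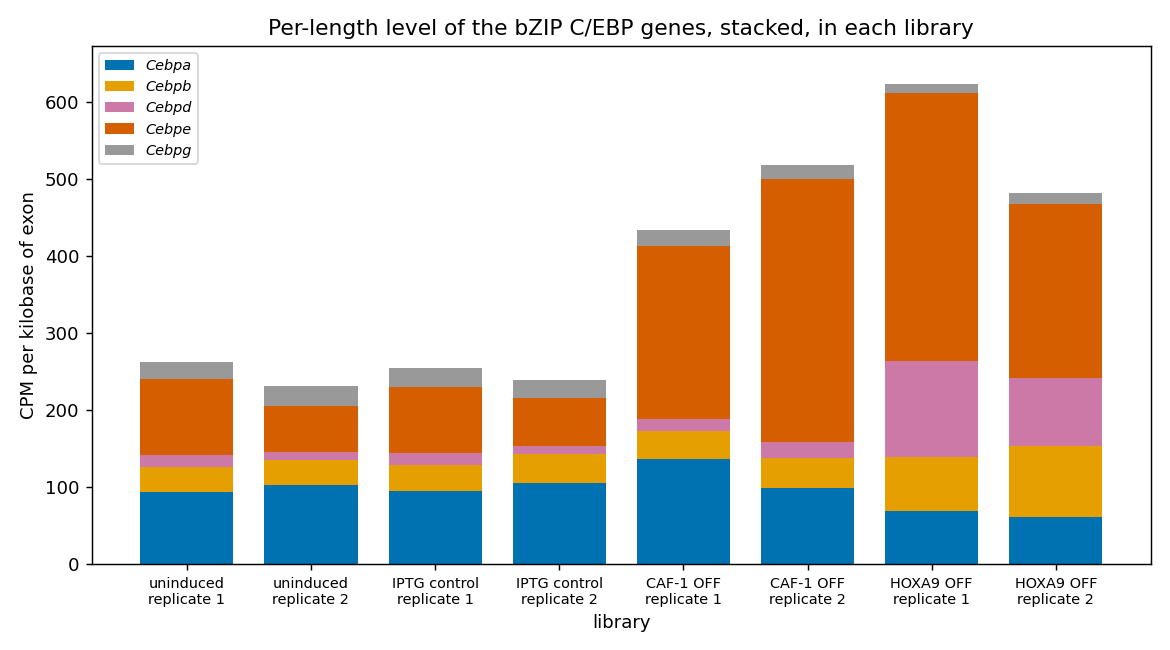
Stacked bars of CPM per kilobase of exon (y axis, from 0) of the 5 bZIP C/EBP genes in each of the 8 libraries (x axis). The bars of the 4 treated libraries reach 434.3 to 622.8, above the 231 to 262.5 of the control libraries, mostly through Cebpe, and Cebpd is wide only in HOXA9 OFF.

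C/EBP proteins also dimerize with other bZIP proteins. Of 11 such partner genes 10 could be tested. The count of Batf3 was too low. In CAF-1 OFF Nfil3, a repressor bZIP factor, rose (log2 fold change 1.00 ± 0.17 SE, edgeR FDR = 0.01141) and Atf4, the factor of the integrated stress response, fell (−1.03 ± 0.18, edgeR FDR = 0.01183). Atf4 was at 533.6 and 532.0 CPM in the uninduced libraries, 279.1 and 243.1 in CAF-1 OFF and 226.4 and 333.6 in HOXA9 OFF. The fall in HOXA9 OFF was of like size (−0.93, edgeR FDR = 0.003260), with a difference between the treated groups of −0.10 ± 0.18 SE. Ddit3, whose product CHOP dimerizes with C/EBP proteins and keeps them off their usual sites, was at 161.6 and 177.4 CPM in the uninduced libraries, 101.0 and 96.82 in CAF-1 OFF and 71.85 and 138.2 in HOXA9 OFF. Against uninduced cells with all libraries edgeR called Ddit3 in neither, while DESeq2 called it lower in both (−0.78, DESeq2 FDR = 0.01427, and −0.67, DESeq2 FDR = 0.01725). Against the IPTG-treated control edgeR called it lower in HOXA9 OFF, as did DESeq2 (−0.76, DESeq2 FDR = 0.007149), but not in CAF-1 OFF. The change in HOXA9 OFF against uninduced cells was −1.24 without HOXA9 OFF replicate 2 and −0.29 without replicate 1. Thus 1 of the 10 partners was called higher and 1 lower by edgeR in CAF-1 OFF, where 10.5% and 3.50% of all genes were.

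In HOXA9 OFF 5 partner genes were called higher and 1 lower, beside 25.2% and 22.1% of all genes, with a median of 0.93 over the 10 against 0.01 over all genes. Fos (3.59 ± 0.43 SE, edgeR FDR = 2.66e-04), Jun (3.14 ± 0.48, edgeR FDR = 9.09e-04), Jund (1.61), Batf2 (1.39) and Junb (1.29) were called higher. The Batf2 call rested on 1 library, with 4.667 and 13.74 CPM in HOXA9 OFF against 2.937 to 4.478 in the 4 control libraries. It was lost without HOXA9 OFF replicate 2 (0.41, edgeR FDR = 0.3659) and against the IPTG-treated control (1.13, edgeR FDR = 0.07741, and 1.01, edgeR FDR = 0.2409, without the first library of that control). Batf (0.43), Atf2 (−0.01), Nfil3 (0.57) and Ddit3 (−0.69) were not called by edgeR. Fos was at 62.29 and 154.3 CPM in HOXA9 OFF and between 5.803 and 10.41 CPM in the other 6 libraries. In CAF-1 OFF none of these 5 called genes was called by edgeR or DESeq2, with Fos at −0.35 ± 0.42 and Jun at 0.49 ± 0.46. The direct test placed Fos (−3.94), Jun (−2.65), Jund (−1.91) and Junb (−1.18) lower in CAF-1 OFF, each called. The call count in CAF-1 OFF, 2 genes, fell to 0 without uninduced replicate 1, without uninduced replicate 2 or without CAF-1 OFF replicate 2, and was 4 without either HOXA9 OFF library.

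Among 10 genes that act on C/EBP protein, the Tribbles pseudokinases moved most. Trib1 and Trib2 present C/EBPα to the ubiquitin ligase COP1, encoded by Rfwd2, for degradation. Trib2 was at 16.07 and 17.37 CPM in the uninduced libraries, 84.75 and 39.31 in CAF-1 OFF and 0.1628 and 1.141 in HOXA9 OFF. It thus rose in one condition (1.89 ± 0.46 SE, edgeR FDR = 0.02865) and fell in the other (−4.63 ± 0.61, edgeR FDR = 4.49e-04), with a direct difference of 6.52 (edgeR FDR = 1.49e-04). The rise in CAF-1 OFF was not called by DESeq2 (1.89, DESeq2 FDR = 0.06982), while DESeq2 called the decrease in HOXA9 OFF. Trib1 rose in both, from 13.22 and 11.34 CPM to 27.16 and 32.99 in CAF-1 OFF (1.29, edgeR FDR = 0.005425) and to 41.35 and 43.54 in HOXA9 OFF (1.79, edgeR FDR = 9.11e-05). Rfwd2 (1.18) and Ep300 (1.13), a coactivator acetyltransferase, rose in HOXA9 OFF, and Carm1 (−1.51), an arginine methyltransferase that acts on C/EBPβ, fell. The remaining 5 genes of this list, Fbxw7, Gsk3b, Crebbp, Celf1 and Pcbp2, were not called by edgeR in HOXA9 OFF, while DESeq2 called Crebbp higher (0.59, DESeq2 FDR = 0.01937). In total CAF-1 OFF had 2 of the 10 called higher and 0 lower, beside 10.5% and 3.50% of all genes, and HOXA9 OFF 3 higher and 2 lower, close to the 25.2% and 22.1% of all genes. Between the treated groups Trib2 and Carm1 (1.06) were higher in CAF-1 OFF and Rfwd2 (−1.29), Ep300 (−0.90) and Gsk3b (−0.75) lower.

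Of 12 transcription factors that act on C/EBP genes or beside them, 4 were called in CAF-1 OFF, all higher, where 10.5% of all genes were called higher and 3.50% lower. These were the retinoic acid receptor gene Rara (1.22), Runx1 (0.81), which acts on the Cebpa enhancer, Stat3 (0.77), which mediates G-CSF signals, and Gfi1 (0.73, edgeR FDR = 0.04219), a repressor needed for neutrophils. Rara had 58 and 65 reads in the uninduced libraries. Against the IPTG-treated control without its first library the changes were 1.12, 0.79, 0.64 and 0.68 in the same order. That fit leaves a lone control library. In HOXA9 OFF 7 were called higher and 4 lower, beside 25.2% and 22.1% of all genes. Klf4 (4.68 ± 0.75 SE), Rara (3.63 ± 0.27) and Rxra (3.05 ± 0.57) rose most and Myc (−2.17 ± 0.13) fell most. Klf4 and Rxra started low, at 0.4451 and 1.455 CPM and at 0.2225 and 0.8128 CPM in the uninduced libraries. In HOXA9 OFF they were at 13.73 and 35.51 CPM and at 4.016 and 4.662 CPM. Sfpi1, which encodes PU.1 and is named because its pattern was close to that of Cebpd, went from 188.9 and 144.6 CPM in the uninduced libraries to 201.7 and 247.3 in CAF-1 OFF and 795.6 and 662.1 in HOXA9 OFF. Gfi1 moved in opposite directions. It was at 387.8 and 365.4 CPM in the uninduced libraries, 569.2 and 676.5 in CAF-1 OFF and 206.5 and 129.9 in HOXA9 OFF (edgeR FDR = 0.001923 for the decrease), and the direct difference of 1.89 was called (edgeR FDR = 2.64e-04). Myb, Myc, Gfi1 and Creb1 were the 4 that fell in HOXA9 OFF. In CAF-1 OFF Myb averaged 851.8 CPM against 851.9 before, and Myc changed by −0.38 ± 0.12 SE, neither of them called.

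**Figure D4:**
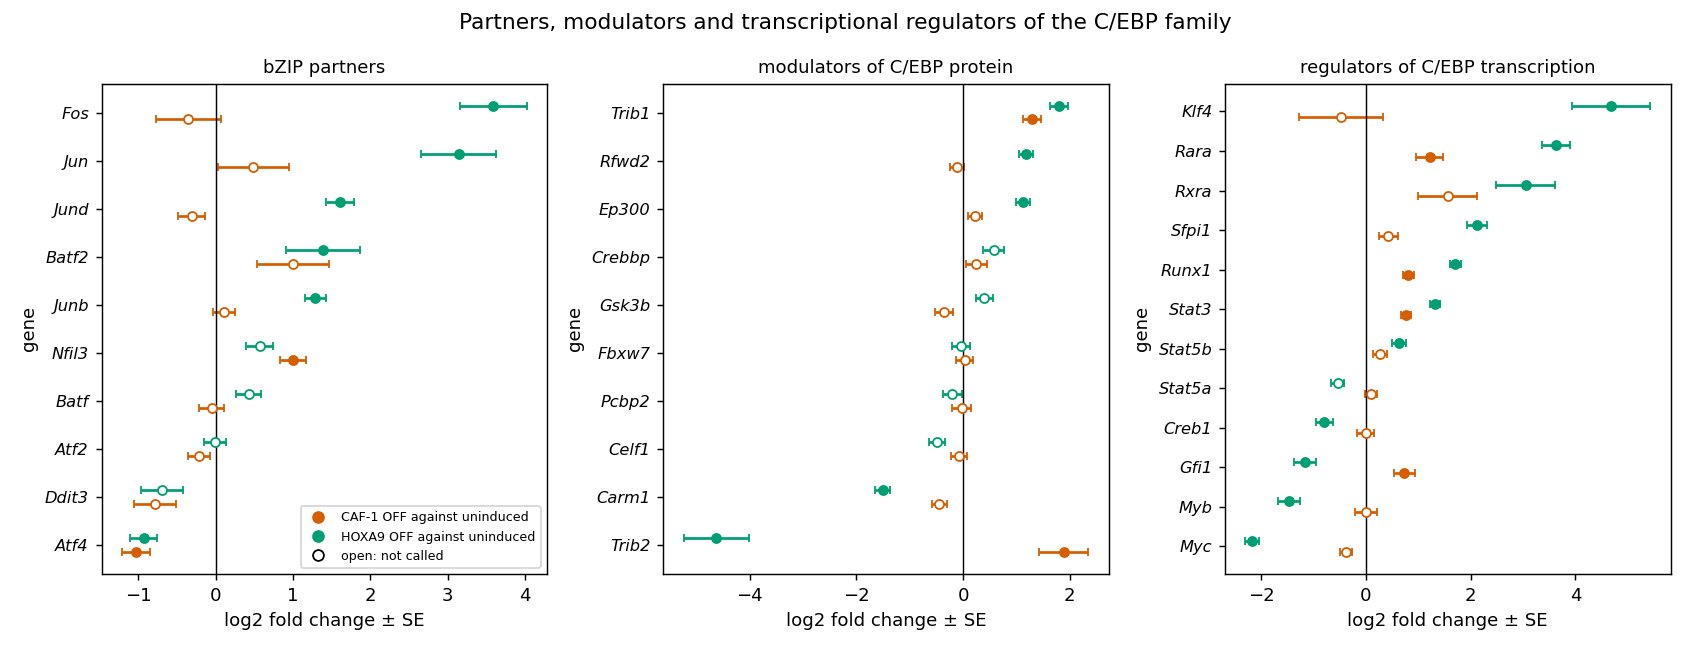
Log2 fold change with SE (x axes) of the tested bZIP partner genes, of genes acting on C/EBP protein and of transcriptional regulators of C/EBP genes (y axes), in CAF-1 OFF and HOXA9 OFF against uninduced cells, with filled points for calls. Among the partners Fos and Jun lie above 3 in HOXA9 OFF and near 0 in CAF-1 OFF, and Trib2 and Gfi1 lie on opposite sides of 0 in the 2 comparisons.

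Granulocytic genes with described C/EBP control were followed beside the family, and whether C/EBP proteins caused their changes was not tested. Of these 20 genes, 19 could be tested and Klf5 had no count in any library. By edgeR, CAF-1 OFF raised 12 and lowered 0 of them past the threshold, with a median log2 fold change of 2.17, and HOXA9 OFF raised 16 and lowered 0 with a median of 6.47, against 0.01 over all genes in both. DESeq2 made 1 more call in each, Camp higher in CAF-1 OFF (2.22, DESeq2 FDR = 0.03115) and Mpo lower in HOXA9 OFF (−0.74, DESeq2 FDR = 0.006913). Of all genes, 10.5% were called higher in CAF-1 OFF and 25.2% in HOXA9 OFF. Of the 20, 6 are also among the mature neutrophil markers and 2 among the progenitor markers, so the list repeats part of the marker sums given above. The count in CAF-1 OFF was 4 without uninduced replicate 1, 6 without uninduced replicate 2 and 6 without CAF-1 OFF replicate 2. Lyz2 was at 0 in both uninduced libraries, and setting it to its lower bound changed the median in CAF-1 OFF to 2.13. It is also among the 16 called in HOXA9 OFF, on 3 and 12 reads. Against the IPTG-treated control DESeq2 did not call it there (DESeq2 FDR = 0.07996).

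Among the targets called in CAF-1 OFF the largest changes were those of Lyz1, Cybb, Chi3l3 and Mmp8. Mmp8, the neutrophil collagenase, was at 58.30 and 43.38 CPM in the uninduced libraries, 1091 and 1937 in CAF-1 OFF and 556.4 and 376.3 in HOXA9 OFF. It was 3.25-fold higher in CAF-1 OFF than in HOXA9 OFF (edgeR FDR = 0.003421) and was 1 of 2 targets called in that order, among 4 of the 19 whose fitted difference had that sign. The other called was Mpo, the myeloperoxidase of primary granules (7749 and 7807 against 3625 and 2559 CPM, edgeR FDR = 0.005659). Elane, the neutrophil elastase of the same granules, rose in CAF-1 OFF (1.61 ± 0.42 SE, edgeR FDR = 0.03337) and was not called in HOXA9 OFF (0.70 ± 0.41). The difference between them was not called either (0.91, edgeR FDR = 0.09497), but was without HOXA9 OFF replicate 1 (1.34, edgeR FDR = 0.04822). Cybb, a subunit of the phagocyte oxidase, was at 0.3116 and 0.1711 CPM in the uninduced libraries, 7.317 and 24.57 in CAF-1 OFF and 721.4 and 390.6 in HOXA9 OFF.

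Ltf had the widest gap between the treated groups. It encodes lactoferrin of the secondary granules and reached 1440 and 968.8 CPM in HOXA9 OFF but 0.4738 and 0.5228 in CAF-1 OFF, where the uninduced libraries had 0.3116 and 0.4278. CAF-1 OFF was thus 2386-fold below HOXA9 OFF (log2 difference −11.22 ± 0.36 SE, edgeR FDR = 1.34e-05). Camp (−7.93), Ngp (−7.89) and Mmp9 (−6.50), which encode the cathelicidin, a granule protein and gelatinase, were likewise lower in CAF-1 OFF, as were the calprotectin genes S100a9 (−6.09) and S100a8 (−5.72). In all, 14 targets were lower and 2 higher in CAF-1 OFF than in HOXA9 OFF, beside 21.4% and 22.2% of all genes, with a median of −3.79 against 0.04 over all genes. The 7 targets not called by edgeR in CAF-1 OFF were Ltf (0.42), Camp (2.21), Mmp9 (0.92), Il6ra (0.22), Mpo (0.58), Prtn3 (−0.06) and Lyz2. Csf3r, the G-CSF receptor gene, rose in both, by 1.62-fold in CAF-1 OFF (edgeR FDR = 0.02744) and 7.11-fold in HOXA9 OFF (edgeR FDR = 1.95e-05). Lyz1 and Lyz2 are near-identical copies whose reads the counting may not have divided correctly, and both are therefore uncertain. Lyz1 was at 0.04451 and 0.3422 CPM in the uninduced libraries, 7.949 and 25.20 in CAF-1 OFF and 71.36 and 387.7 in HOXA9 OFF, and Lyz2 never exceeded 0.7319 CPM.

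**Figure D5:**
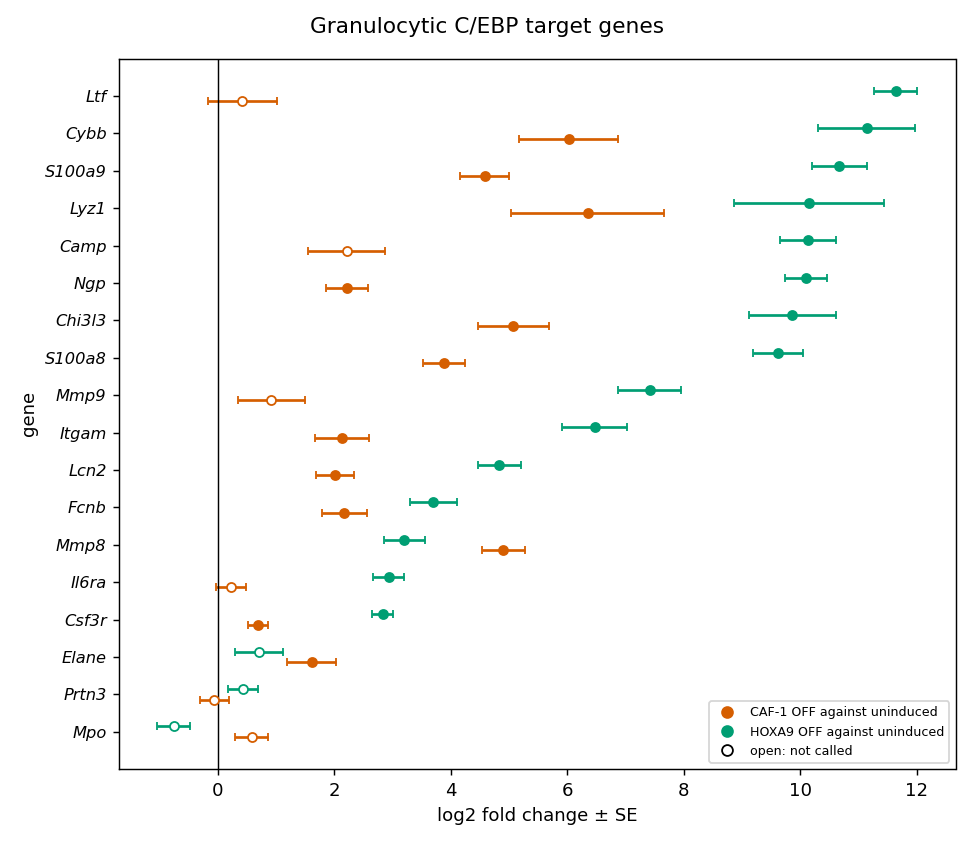
Log2 fold change with SE (x axis) of 18 granulocytic C/EBP target genes (y axis) in CAF-1 OFF and HOXA9 OFF against uninduced cells, with filled points for calls. Lyz2, at 0 in uninduced cells, is left out. Most genes lie further right in HOXA9 OFF, Ltf has the widest gap, and Mmp8, Elane and Mpo lie further right in CAF-1 OFF.

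Each member was finally set against the 9840 tested genes whose log2 CPM averaged 2 or more, by Pearson's r of log2 CPM over the 8 libraries, which fall into 4 groups and share their condition, depth and scaling. Closest to Cebpe were Cftr (0.998), a chloride channel gene, Adipor2 (0.992) and Cln6 (0.991). Cftr ranged from 0.3422 to 1.469 CPM in the uninduced libraries, 14.05 to 48.51 in CAF-1 OFF and 16.12 to 35.81 in HOXA9 OFF. Closest to Cebpd were Mtmr14, Naip2 and Sfpi1 (each 0.999), and to Cebpb Tmem86a (0.996), Zfp513 (0.994) and Plod1 (0.994). Closest to Cebpa were Pla2g6 (0.981), Cst7 (0.978) and Fgf3 (0.975), the lowest values of the family. Cst7, which encodes cystatin F, ranged from 147.9 to 149.8 CPM in the uninduced libraries, 153.2 to 214.7 in CAF-1 OFF and 73.90 to 76.67 in HOXA9 OFF. Closest to Cebpg were Stau2 (0.997), 2500002B13Rik (0.993) and Aste1 (0.991). Closest to Cebpz were Nup133 (0.998), Gemin6 (0.997) and Nup85 (0.997), of which Nup133 and Nup85 encode subunits of the nuclear pore and Gemin6 a subunit of the SMN complex.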

How the data were processed

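The members, gene lists and tests were chosen with earlier results of these data known. Raw counts of reads per gene were deposited by the authors, 1 table per library, made per the labels and the methods of the study from directional libraries with STAR, the mm9 genome and HTSeq-count; the strand setting and the annotation version are not given in the sources used here. HTSeq summary rows, 47.54% to 59.80% of all counts in a library, were left out. With edgeR 4.0.16 (R 4.3.3), genes passing filterByExpr (13080 of 21216 with a count) were scaled by TMM and tested by glmQLFit and glmQLFTest over all 8 libraries with 1 mean per group, so that all groups shared 1 estimate of spread (biological coefficient of variation 18.91%). FDR is Benjamini-Hochberg adjusted over all tested genes. Intervals of a fold change use the t distribution of that fit. With 2 libraries against 2, an exact permutation test cannot give a p below 0.3333, so no such test was used. Per-length levels use the union of exons. The sequence of Cebpd is not reported here. Named genes were all 6 members, up to 4 called genes with the largest change per list and comparison, further genes where a count needed them, and the 3 genes closest to each member. DESeq2 1.42.0, other scalings, filters, thresholds and left-out libraries were alternatives. The code was tested on simulated data.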

Additional observations from a re-analysis of the deposited data

Results flagged for a closer look

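The effects of CAF-1 loss and HOXA9 loss, tested directly against each other, differed for 5 of the 6 C/EBP genes, in a comparison that called 22.2% of all genes higher and 21.4% lower. Cebpa (log2 difference 0.85), Cebpg (0.68) and Cebpz (0.81) were higher in CAF-1 OFF than in HOXA9 OFF, with edgeR FDRs of 0.003079, 0.009584 and 4.16e-04. Cebpb (-1.13) and Cebpd (-2.54) were lower in CAF-1 OFF, with edgeR FDRs of 4.53e-04 and 2.80e-04. For Cebpe the same test was not passed. Groups of 2 libraries are too small for a test of single outlying samples.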

How the results depend on the processing

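Each group has 2 libraries, so leaving one out leaves a lone sample that is assumed to vary like the other groups. Leave-one-out ranges of the call counts were 0 to 1 for C/EBP genes called in CAF-1 OFF, whichever control was used, 4 to 14 for the targets and 0 to 4 for the partners in CAF-1 OFF. Values that changed sign in this way were those not called: Cebpa in CAF-1 OFF (-0.0046 to 0.48, and -0.04 to 0.45 against the IPTG-treated control), Cebpb in CAF-1 OFF against the IPTG-treated control (-0.03 to 0.17), Cebpe between CAF-1 OFF and HOXA9 OFF (-0.36 to 0.31), and, for the IPTG-treated control against uninduced cells, Cebpa (-0.04 to 0.11), Cebpb (-0.0062 to 0.16), Cebpd (-0.27 to 0.35), Cebpe (-0.43 to 0.32), Cebpg (-0.12 to 0.15) and Cebpz (-0.07 to 0.0002). With an FDR of 0.01 and 2-fold, the C/EBP calls were 0 in CAF-1 OFF against either control, 3 in HOXA9 OFF against either and 2 between the treated groups, and in CAF-1 OFF 6 targets and 0 partners were called. With glmTreat, which tests against 1.5-fold itself, 0 partners were called in CAF-1 OFF and 3 C/EBP genes between the treated groups. The single-gene calls lost with it were Cebpa in HOXA9 OFF against the IPTG-treated control (-0.62, FDR = 0.3799) and, between the treated groups, Cebpa (0.85, FDR = 0.06529) and Cebpg (0.68, FDR = 0.2768). Scaling by library size alone moved the median of all genes to -0.18 in HOXA9 OFF and to 0.27 between the treated groups. Only Cebpe between the treated groups (0.21) and Cebpg in the IPTG-treated control (-0.0010) changed direction among the members with that scaling. Cebpa in HOXA9 OFF, 1.498-fold lower in the fit reported, passed 1.5-fold with library size scaling (-0.78), no filter (-0.61), a mean of at least 50 counts (-0.59), only the groups compared (-0.60), and with 6 of the 8 libraries left out in turn. With the replicate block it was called as well (-0.59), Cebpe between the treated groups was at 0.04, and the calls over all genes in CAF-1 OFF were 2123 in place of 1836. The deviations of same-numbered libraries correlated at 0.48 (uninduced and IPTG-treated control), 0.30 (uninduced and HOXA9 OFF) and 0.32 (IPTG-treated control and HOXA9 OFF) but at -0.04, -0.02 and 0.08 where CAF-1 OFF was one of the groups, so the numbers were not taken as pairs. The longest transcript in place of the exon union moved Cebpg in the IPTG-treated control to 25.25 CPM per kilobase and a share of 10.17%. Apart from leaving out libraries, the alternatives kept 111 call counts within 1.5 times of the reported ones and 9 not, and 277 fold changes of single C/EBP genes on the same side of the threshold and of 0, with the exceptions named above: 3 that changed sign, 5 that passed the threshold and 3 that lost it.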
